A study of Drosophila melanogaster with 7 samples.

Results

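Neuropeptides and peptide hormones are short secreted peptides that neurons and endocrine cells use to signal over longer distances and times than classical transmitters. Each is cut from a larger precursor, often amidated at its end, stored in dense-core vesicles and, once released, bound in most cases by a G protein-coupled receptor. In the fly larval nervous system small sets of identified neurons make most of these peptides, which act in feeding, growth, water balance, stress and ecdysis.

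A list of 46 neuropeptide and peptide hormone genes was looked up by gene symbol in the authors' deposited table, and 13 of the 46 had a row among its 2366 genes. RNA was taken from central brains with their ventral nerve cords, dissected from mid-third-instar Drosophila melanogaster larvae that were 4 days past egg lay and kept at 25 °C. The genotype of 4 libraries was elav-GAL4>UAS-ISWI RNAi, in which a driver active throughout neurons expresses a hairpin that targets Iswi, whose product is the ATPase of several nucleosome remodelling complexes. The 3 control libraries had the genotype elav-GAL4; +, that is, the driver without a hairpin. Each library pooled 40 brains, and both groups carry elav-GAL4. The table's fold change is named for a comparison with attp2, while the labels name the control by its driver alone. Hairpin insertion and genetic background differ between the groups together with the knockdown and cannot be told apart from it. Whether the driver was also active in other cells was not examined here. The RNA came from whole tissue with its glia, and no value for a single cell type was measured.

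The table gives each gene a single fold change, ISWI RNAi over control, and stops at a p of 0.1. No library's own values entered the work, so neither the spread over libraries nor the depth of a library is known, and the error of each fold change is the one its deposited p implies. Iswi itself fell to 24.6% of the control level per the authors' deposited table (log2 fold change -2.03, implied standard error 0.06, adjusted p 5.1e-230). Of 5 neuronal markers (elav, nSyb, brp, Syt1 and fne) and 5 glial markers 0 were listed, so the table gives no level by which to check the tissue for them. A mean normalised count is the mean over all 7 libraries of counts divided by the authors' size factors. Group means were worked out from it and the fold change, taking the fold change as the plain ratio of the groups' means, and carry no error of their own.

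FMRFa rose, and Ilp5 and NPF fell, at an adjusted p under 0.05, by 1.28- to 1.29-fold. These 3 are 6.52% of the 46 genes, against 4.65% of the 10775 genes that the adjusted p values imply were tested. By direction, 1 of 46 was higher, with 2.06% of all tested genes higher, and 2 of 46 were lower, with 2.59% of all tested genes lower. The 13 listed genes are 28.3% of the 46, against 21.5% of tested genes listed. The members' shares lie near these background shares. Among the 13 listed, 4 had a fold change above 0 and 9 one below 0 per the authors' deposited table, where 51.6% of all listed genes were negative.

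**Figure D1:**
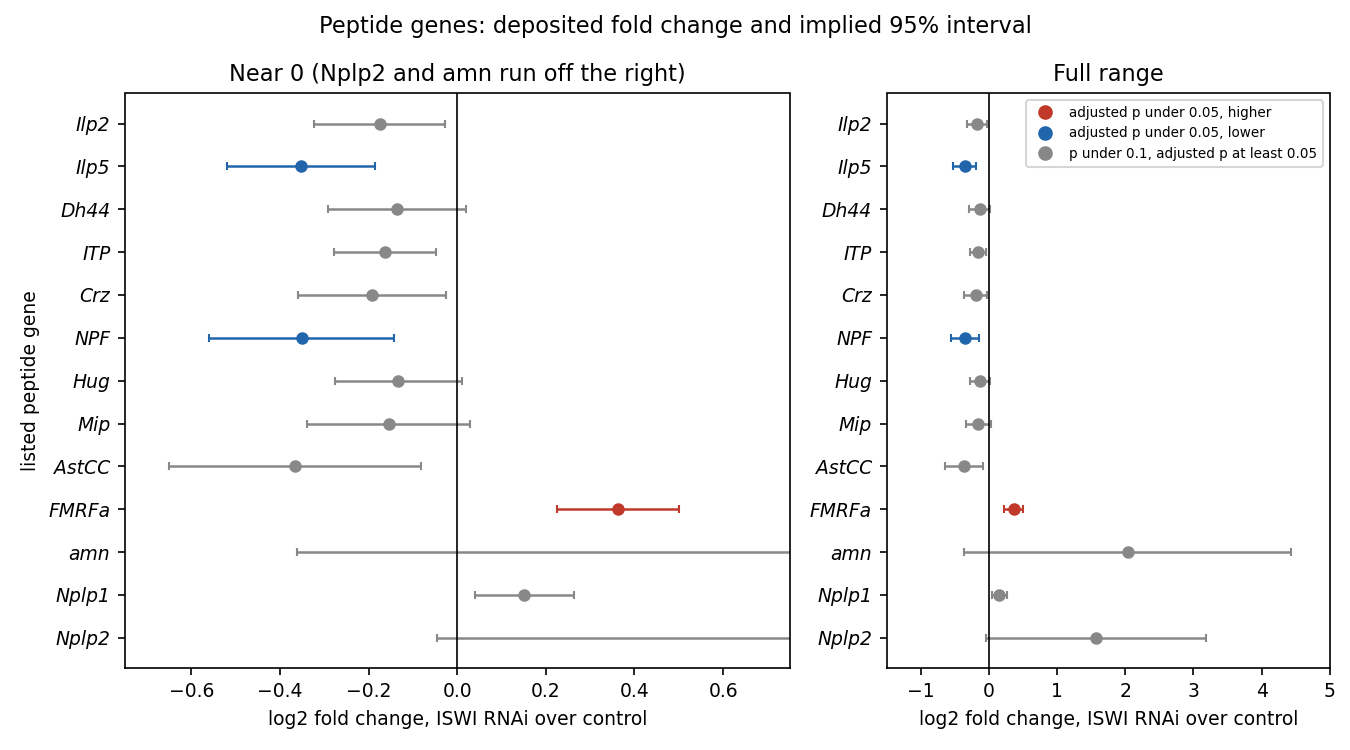
The log2 fold change of ISWI RNAi over control (horizontal axis) is plotted for the 13 listed peptide genes, in order of role, with the 95% interval implied by the deposited p. The left panel shows the range near 0 and the right panel the full range. FMRFa (0.36) lies right of 0 and Ilp5 (-0.35) and NPF (-0.35) left of it, at an adjusted p under 0.05. The intervals are not adjusted for the number of tests, and 8 of the 13 exclude 0. Those of amn and Nplp2 are far wider than the others.

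Insulin-like peptides drive growth and sugar uptake, and Ilp2, Ilp3 and Ilp5 are made together in the insulin-producing neurosecretory cells of the larval brain. Ilp5 (FBgn0044048) fell per the authors' deposited table, with a worked-out mean normalised count of 1563 in ISWI RNAi libraries and 1996 in control libraries. Its log2 fold change there was -0.35 (implied standard error 0.09, 95% interval -0.52 to -0.19, adjusted p 0.0018), which leaves 78.3% of the control level. In bulk tissue, fewer cells of a type and less RNA per cell cannot be told apart. Ilp2 (FBgn0036046) had worked-out means of 3667 in ISWI RNAi libraries and 4140.0 in control libraries from the authors' deposited table. With a log2 fold change of -0.18 (95% interval -0.32 to -0.03) and an adjusted p of 0.21, Ilp2 did not pass the test per the authors' deposited table. Ilp3 was not listed, so its p was at least 0.1 or it had no p. Whether the fold changes of Ilp2 and Ilp5 differ was not tested. Nor were Ilp1, Ilp7 and Ilp8 (a peptide of damaged or growing imaginal discs that delays metamorphosis) listed.

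Ilp2 and Ilp5 lie in 1 cluster on chromosome 3L. In build BDGP6 Ilp2 spans 9799698 to 9800440 on the plus strand and Ilp5 spans 9823349 to 9823897 on the minus strand, 22908 bases apart, and Ilp1, Ilp3 and Ilp4 of the same 25478-base stretch were not listed. Ilp5 lies inside CG43897 (9813847 to 9834345), which is on the opposite strand and shares 0 exon bases with it in the reference annotation. CG43897 rose by 0.87 (implied standard error 0.17, adjusted p 3.3e-05) on the log2 scale per the authors' deposited table, so the host gene was higher and the nested peptide gene lower. The kit was strand-specific, but the labels do not say if reads were counted by strand. If they were not, reads from introns of CG43897 and from Ilp5 exons could not be told apart. The mean normalised count was 276 for CG43897 and 1749 for Ilp5 per the authors' deposited table. The part of such reads in the value of Ilp5 was not tested.

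Among hormones of water balance and stress 3 genes were listed, and 0 of them passed the authors' DESeq2 test. All 3 had a fold change below 0, where 51.6% of all listed genes were negative. Being listed requires a p under 0.1, so the direction of unlisted hormones of this kind is not known. ITP (ion transport peptide, an antidiuretic hormone; FBgn0035023) had worked-out means of 2628 in ISWI RNAi libraries and 2943 in control libraries, from the authors' deposited table. Its log2 fold change of -0.16 (implied standard error 0.06, 95% interval -0.28 to -0.05) had an adjusted p of 0.089 per the authors' deposited table, the smallest among the 10 listed peptide genes that did not pass. ITP shares 296 exon bases with CG4622 on the opposite strand, and CG4622 had a log2 fold change of 0.19 and an adjusted p of 0.41 per the authors' deposited table. Crz (corazonin, a stress peptide related to gonadotropin-releasing hormone; FBgn0013767) had means of 987 in ISWI RNAi libraries and 1127 in control libraries, worked out from the authors' deposited table. Crz stood at -0.19 on the log2 scale (95% interval -0.36 to -0.03, adjusted p 0.23) per the authors' deposited table. Dh44 (a diuretic hormone related to corticotropin-releasing factor; FBgn0012344) had a log2 fold change of -0.14 there, with a 95% interval from -0.29 to 0.02 and an adjusted p of 0.44 per the authors' deposited table. Dh31, Capa and Lk, 3 further diuretic peptides, and Akh, the adipokinetic hormone of the corpora cardiaca, were not listed.

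NPF (neuropeptide F, the fly relative of neuropeptide Y that promotes feeding; FBgn0027109, chromosome 3R, 16609220 to 16611325) fell per the authors' deposited table. Its worked-out mean was 426 in ISWI RNAi libraries and 543 in control libraries. NPF had a log2 fold change of -0.35 (implied standard error 0.11, 95% interval -0.56 to -0.14) and an adjusted p of 0.027 per the authors' deposited table, or 78.4% of the control level. NPF and ITP stand on either side of the threshold of 0.05. Short neuropeptide F (sNPF), which has its own gene and receptor despite the name, was not listed.

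AstCC (allatostatin double C, a relative of AstC; FBgn0032337) had the most negative fold change among the 13, -0.37 on the log2 scale per the authors' deposited table. At a mean count of 247 its implied standard error was 0.15 and its adjusted p 0.15 per the authors' deposited table, so it did not pass although NPF, with a smaller fold change and a higher count, did. Worked-out means for AstCC were 219.7 in ISWI RNAi libraries and 283 in control libraries. Hug (hugin, a pyrokinin-type precursor that curbs feeding; FBgn0028374) and Mip (myoinhibiting peptide; FBgn0036713) were listed at -0.13 and -0.15 with adjusted p of 0.395 and 0.466 per the authors' deposited table. The interval of each reaches past 0, to 0.01 for Hug and 0.03 for Mip. Of the other modulators, AstA, AstC, Tk, SIFa, Proc, Ms, Dsk, CCHa1, CCHa2, RYa, CNMa, Orcokinin, spab and Pdf were not listed.

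FMRFa (FBgn0000715, chromosome 2R, 9906294 to 9910457) encodes FMRFamide-related peptides that enhance muscle contraction and, in the thoracic nerve cord, comes from the Tv neurons of the Apterous cluster. It rose per the authors' deposited table, with a worked-out mean of 1225 in ISWI RNAi libraries and 952 in control libraries. The log2 fold change was 0.36 (implied standard error 0.07, 95% interval 0.23 to 0.50) and the adjusted p 2.4e-05 per the authors' deposited table, or 129% of the control level. FMRFa had the smallest p of the 13 genes. Nplp1, a precursor that other cells of the same Apterous cluster express and whose peptide acts on the receptor guanylyl cyclase Gyc76C, was positive too. Nplp1 (FBgn0035092) had worked-out means of 6395 in ISWI RNAi libraries and 5759 in control libraries from the authors' deposited table. Its log2 fold change of 0.15 (implied standard error 0.06, 95% interval 0.04 to 0.26) had an adjusted p of 0.12 per the authors' deposited table and did not pass.

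Neighbours of FMRFa were also listed. tea, 7780 bases away on the same strand, rose by 0.29 on the log2 scale per the authors' deposited table (adjusted p 0.0068). Etf-QO, 435 bases away on the same strand, stood at 0.17 with an adjusted p of 0.29 per the authors' deposited table. Within 20 kb of FMRFa 8 genes are annotated, 2 of them were listed and 1, tea, was called. Over all tested genes 21.5% were listed and 4.65% called. NPF had 12 such neighbours and 1 listed, CG14905, at a mean count of 6.81 per the authors' deposited table. Near Crz su(Hw), 6264 bases away, rose by 0.26, and near Dh44 Calr, 7330 bases away, fell by 0.18, both on the log2 scale and per the authors' deposited table. Neighbours listed without passing were Fcp1 (-0.22) and Nurf-38 (-0.16) near ITP and red (-0.12) near Crz. CG9427 (0.82) near Dh44 and tap (0.20) near Mip did not pass either. Nplp1, AstCC, Nplp2, Hug and amn had 0 listed genes within that distance.

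The largest positive fold changes among the 13 belonged to Nplp2 and amn, and neither passed the test. Nplp2 (FBgn0040813, chromosome 3L, 13356376 to 13357223) was named as a neuropeptide-like precursor, and RefSeq also gives it the name IM7, for an immune-induced molecule. It had a log2 fold change of 1.57 per the authors' deposited table, with an implied standard error of 0.82, a 95% interval from -0.05 to 3.18 and an adjusted p of 0.36. Worked-out means were 1417 in ISWI RNAi libraries and 479 in control libraries. That standard error is 10.1 times the median of 0.08 over 476 listed genes with a mean count within 1.5-fold of that of Nplp2. Only genes with a p under 0.1 are listed, so a wide standard error is seen only beside a large fold change. Of 1245 listed genes whose mean count reached 500, 0 had a larger standard error than Nplp2. Genes without a row are not covered by this order. The next 3 in that order were the hemocyte (blood cell) genes Hml, Ppn and Pxn, at 0.63, 0.56 and 0.40, from the authors' deposited table.

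Of 9 hemocyte markers 7 (77.8%) were listed, all but vkg and Col4a1, against 21.5% of all tested genes. The 7 were positive, with log2 fold changes from 0.96 to 1.54 per the authors' deposited table. Of these hemocyte markers 2, NimC1 and Pxn, rose at an adjusted p under 0.05. They are 22.2% of the 9 markers, against 4.65% of all tested genes called. The levels of these markers in single libraries were not used here, and their part in the value of Nplp2 was not tested. Of 8 fat body markers 2 were listed, apolpp at 0.21 and Lpin at -0.19 per the authors' deposited table, neither past the test. Of 6 steroid-making genes of the ring gland, an endocrine organ attached to the larval brain, all but dib were listed, 5 in number, with log2 fold changes from -0.43 to -0.24 per the authors' deposited table and none past the test. Whether the ring gland had a part in the values of Ilp5 and NPF was not tested. Akh and ETH, which mark the corpora cardiaca of the ring gland and the Inka cells of the trachea, were not listed. Body wall muscle had 5 of 8 markers listed, all positive, from 0.28 to 0.71 per the authors' deposited table, and eye and wing discs had 2 of 5, at 0.44 and 0.94. Per the authors' deposited table bt of muscle and gl of the eye disc passed the test and the other listed markers of these tissues did not. That is 12.5% of muscle and 20% of disc markers, against 4.65% of all tested genes, and 1 gene sets each share. Of fat body, ring gland, muscle and disc markers 25%, 83.3%, 62.5% and 40% were listed, against 21.5% of all tested genes. No set test was run on these short lists.

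amn (amnesiac, a memory gene; FBgn0086782, chromosome X) had a log2 fold change of 2.04 per the authors' deposited table, but a mean count of only 3.84. Its 95% interval runs from -0.36 to 4.44 and its adjusted p was 0.46 per the authors' deposited table. amn also shares 140 exon bases with Hers on the opposite strand. Among listed genes of like mean count the smallest log2 fold change called was 3.86 in size per the authors' deposited table. The standard error of amn, 1.22, is close to the median of 1.16 of those genes, from the authors' deposited table.

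**Figure D2:**
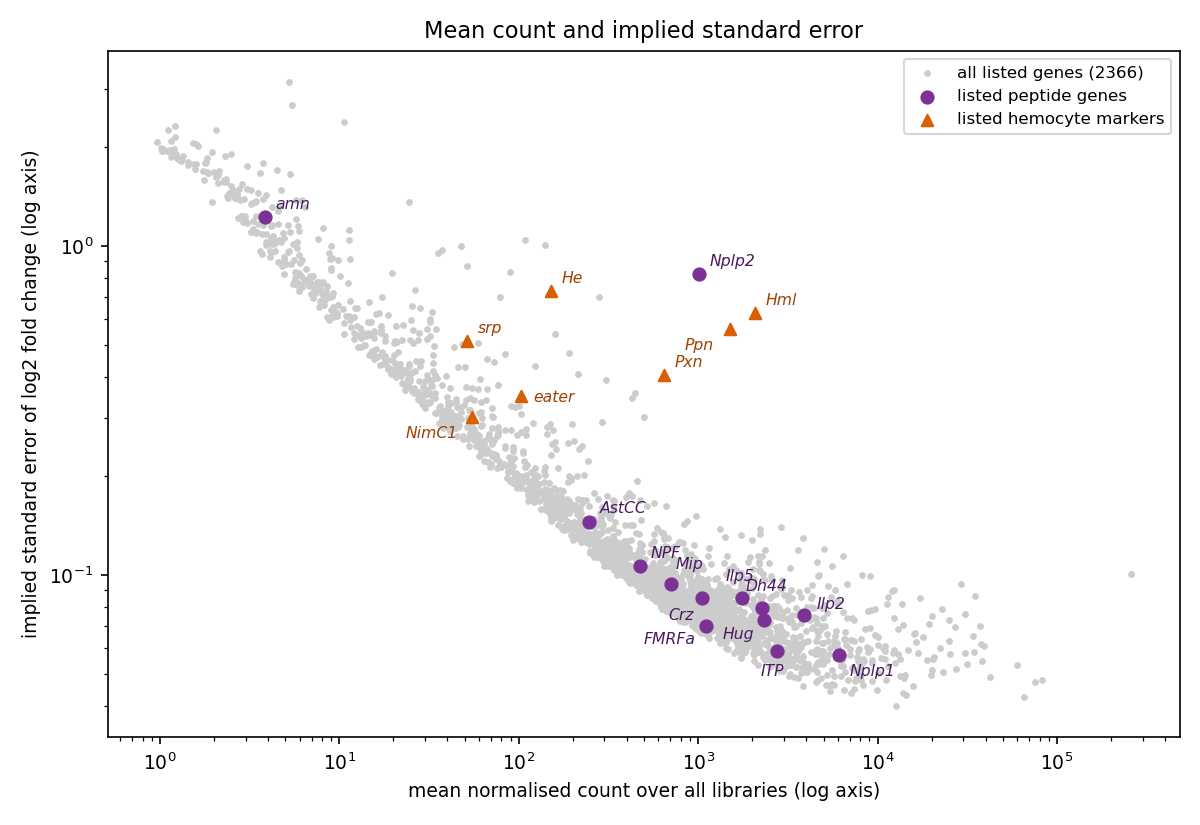
Each listed gene is plotted by its mean normalised count over all libraries (horizontal, log axis) and the standard error of its log2 fold change implied by the deposited p (vertical, log axis). Peptide genes are purple circles, hemocyte markers orange triangles and all listed genes grey. Apart from amn and Nplp2 the peptide genes lie in the main band, between 0.06 and 0.15, and Nplp2 (0.82) stands above it next to Hml, Ppn and Pxn.

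Per kb of gene length, the insulin-like genes were the most abundant of the 13. Ilp2 had a mean normalised count of 5775 per kb and Ilp5 of 3659 per kb, worked out from the authors' deposited table. Only 2.2% of all listed genes had a higher count per kb than Ilp2, and 3.63% a higher one than Ilp5. Nplp1 and Hug followed at 2267 and 2258 per kb, then Nplp2 at 1664 and Crz at 1601 per kb. Dh44, NPF and FMRFa had 942, 794 and 776 per kb, ITP and Mip 590 and 505 per kb, AstCC 210 and amn 0.97 per kb. The place of Nplp2 differs by group. It had 2323 per kb in ISWI RNAi, above Hug (2168), and 784 per kb in control, below Crz (1724), Dh44 (994) and NPF (906), worked out from the authors' deposited table. The order is a description, since no spread over libraries is known for these levels, and close neighbours in it, such as Nplp1 and Hug or NPF and FMRFa, may not differ.

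**Figure D3:**
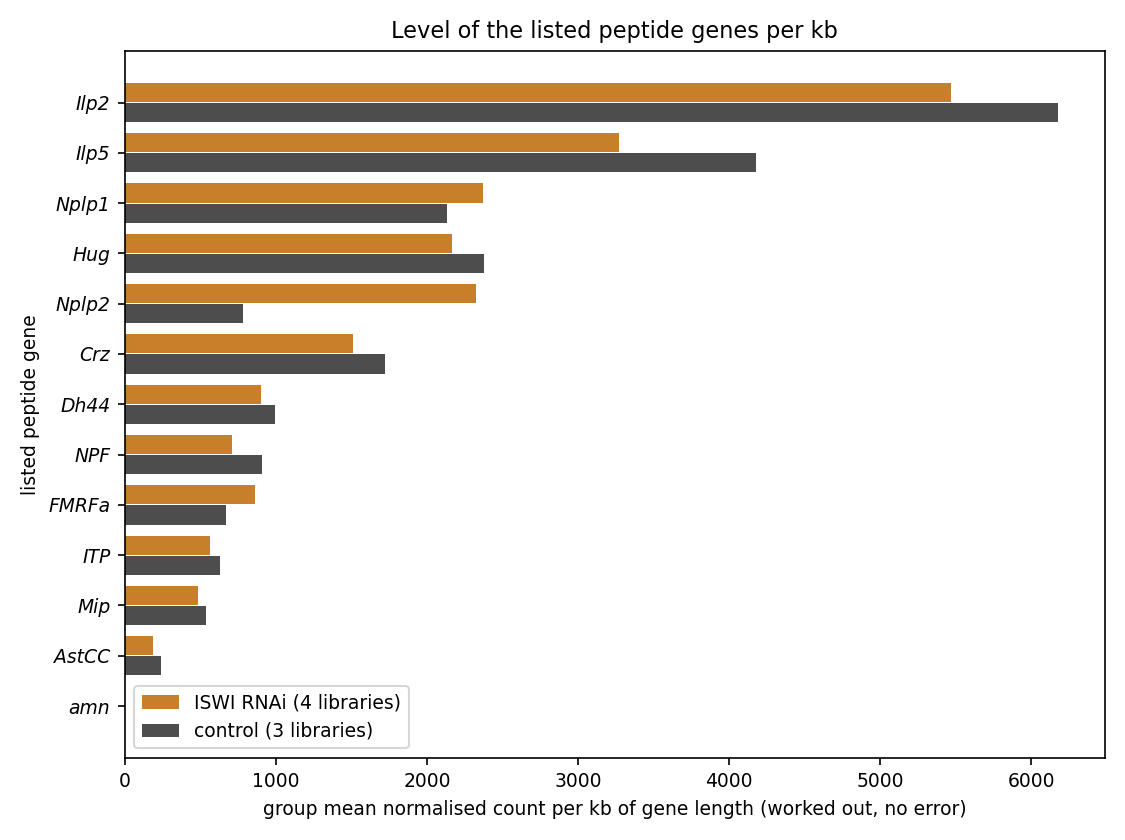
Worked-out group mean normalised counts per kb of gene length (horizontal axis, from 0) are drawn as bars for the 13 listed peptide genes, ISWI RNAi above control, in order of mean level. No error can be given for these means. Ilp2 and Ilp5 have the longest bars, and amn is too low to be seen. Nplp2 has the pair that differs most in length (2323 in ISWI RNAi and 784 in control, with the wide interval given in the text).

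The other members gave no row in the table. They include the ecdysis and wandering peptides ETH, Eh, CCAP, Burs and Pburs, the tropic hormone Ptth that drives ecdysone synthesis, the precursors Nplp3 and Nplp4, and Gpa2 and Gpb5, which form a glycoprotein hormone. With those named above they make 33 genes with a p of at least 0.1 or no p, and these 2 cases cannot be told apart. Their lack of a row does not show that they were unchanged.

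Genes that make, release and receive the peptides were looked up as further lists. Pal2, a peptidyl-hydroxyglycine lyase that completes the amidation of many neuropeptides, fell per the authors' deposited table, with worked-out means of 4137 in ISWI RNAi libraries and 5364 in control libraries. Its log2 fold change was -0.37 (implied standard error 0.07, adjusted p 1.3e-06) per the authors' deposited table. Pal2 shares 592 exon bases with CG30183 on the opposite strand, so its value is uncertain where strand was not used. Its relative Pal1 was listed at -0.15 (adjusted p 0.42) and Nep2, a peptide-degrading neprilysin, at 0.43 (adjusted p 0.32), per the authors' deposited table. Pal1 shares 136 exon bases with CG1418 and Pdrg1 on the opposite strand. Of 17 processing and degradation genes 0 were higher and 1 was lower, 3 were listed, and amon (the prohormone convertase), svr and Phm were not listed. The 5.88% called lie near the 4.65% of all tested genes, and the 17.6% listed near 21.5%.

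Cadps, which primes dense-core vesicles for release, fell per the authors' deposited table. It had worked-out means of 6300.5 in ISWI RNAi libraries and 8283 in control libraries. The log2 fold change of -0.39 (implied standard error 0.06) had an adjusted p of 8.6e-08 per the authors' deposited table. Of 16 vesicle and release genes it was the only one called, with 0 higher and 1 lower and 3 listed. That is 6.25% of the list, near the 4.65% called over all tested genes. Syx1A (0.18) and Rop (-0.10), which act in the release of all vesicles, had adjusted p of 0.39 and 0.43 per the authors' deposited table. Syx1A shares 447 exon bases with eIF4EHP on the same strand, so its count is uncertain.

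Of 42 peptide receptor genes 0 were higher and 1 was lower. The receptors called were 2.38% of their list, against 4.65% of all tested genes, and 14.3% were listed, against 21.5%. hec (hector, a class B receptor needed for male courtship) fell by 0.64 (implied standard error 0.13, adjusted p 5.4e-05) on the log2 scale per the authors' deposited table. Worked-out means for hec were 162 in ISWI RNAi libraries and 252 in control libraries. The other 5 listed receptors were positive and did not pass, AstA-R1 at 0.31, AstA-R2 at 0.36, SIFaR at 0.32, Dh44-R1 at 0.19 and Dh44-R2 at 0.14 per the authors' deposited table, with adjusted p from 0.11 to 0.46. Dh44 was the only listed peptide found with a listed receptor, in 2 of 13 ligand and receptor pairs looked up for listed peptides. No receptor was looked up for ITP, Nplp2 or amn. Dh44 itself was negative and both its receptors positive, none past the test. Dh44-R2 shares 1087 exon bases with CG34234 and fdl on the opposite strand. NPFR, FMRFaR and InR, the receptors of the 3 called peptides, were not listed.

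In a list of 21 genes linked to the specification or state of peptidergic cells, 2 were higher and 0 lower. They are 9.52% of that list, against 4.65% of all tested genes called, 2.06% higher and 2.59% lower. Of the list 28.6% were listed, against 21.5% of all tested genes. In a list of 21 genes the share called rests on these 2 genes. Of the 6 listed genes 3 were positive and 3 negative. crc (the fly ATF4 homologue, needed at ecdysis) rose by 0.32 on the log2 scale per the authors' deposited table. cas (castor, a temporal factor of neuroblasts) rose by 0.28 there. Their adjusted p were 1.8e-06 and 0.0029 per the authors' deposited table. crc shares 2515 exon bases with CG46314 on the same strand in the reference, so its count is uncertain. Fer2 (-0.25, adjusted p 0.052), ey (-0.17), gbb (0.17) and nab (-0.12) were listed per the authors' deposited table and did not pass. Fer2 shares 268 exon bases with CG5916 on the opposite strand. dimm, the regulator of the peptidergic secretory state, and ap, which FMRFa expression in Tv neurons requires, were not listed.

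Of 20 insulin pathway genes 1 was higher and 0 lower, or 5% called against 4.65% of all tested genes. Pi3K92E, the catalytic subunit of phosphoinositide 3-kinase, rose by 0.26 (implied standard error 0.08, adjusted p 0.033) on the log2 scale per the authors' deposited table, and gig and S6k were listed at -0.13 and 0.13 with adjusted p of 0.40 and 0.45. Of 7 further peptide and insulin-binding genes Lst (limostatin, a peptide hormone that suppresses insulin secretion) rose, 14.3% of a list so short that 1 gene sets the share. Lst had a log2 fold change of 0.86 (implied standard error 0.27, adjusted p 0.033) per the authors' deposited table, with worked-out means of 84.1 in ISWI RNAi libraries and 46.2 in control libraries. Ilp4 and Ilp6 were not listed.

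**Figure D4:**
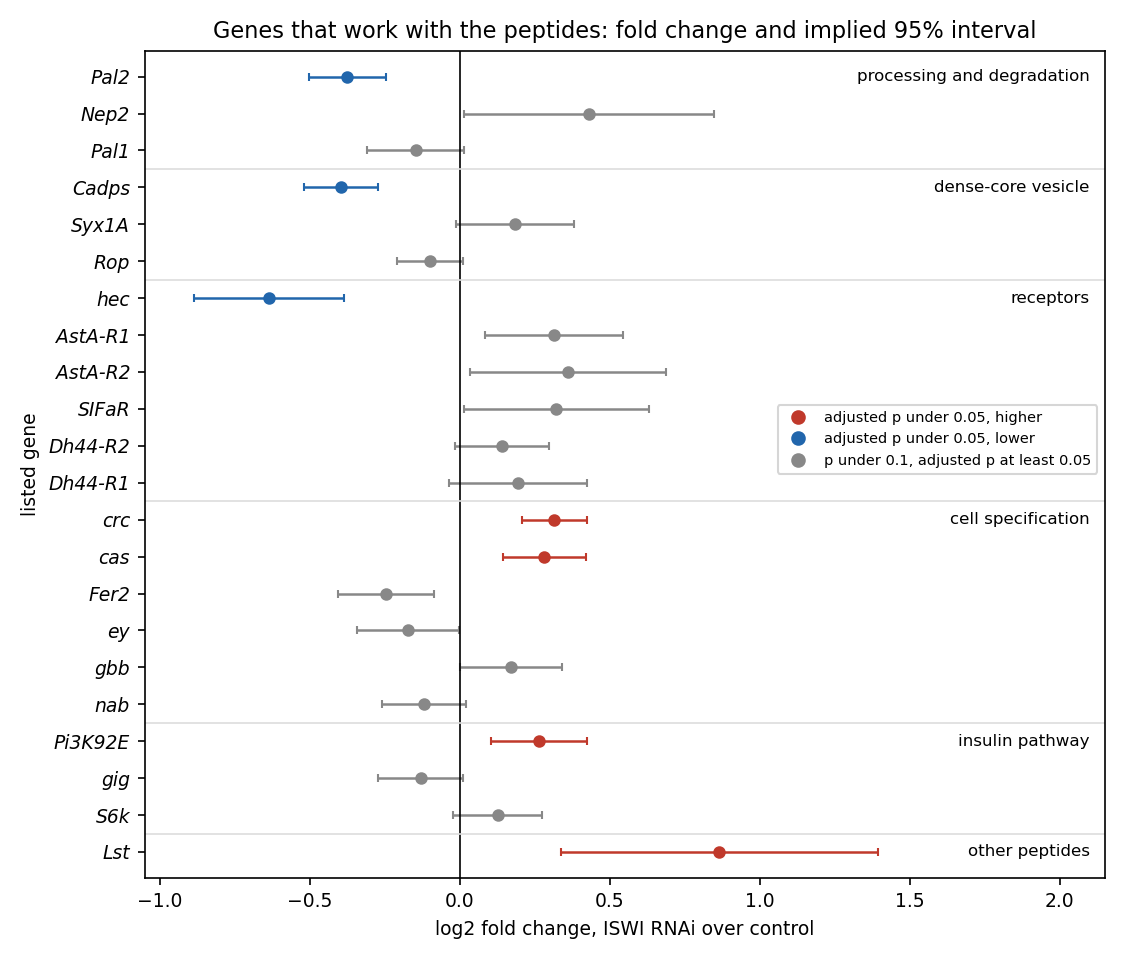
The log2 fold change of ISWI RNAi over control (horizontal axis) is drawn for the listed genes of 6 lists around the peptides, with the 95% interval implied by the deposited p. Pal2, Cadps and hec lie left of 0 and crc, cas, Pi3K92E and Lst right of it at an adjusted p under 0.05, and the other genes drawn did not pass.

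The calls rest on the authors' adjusted p. At an adjusted p under 0.1 ITP joined them, making 4 of 46 with 6.38% of all tested genes called, and at 0.01 NPF dropped out, leaving 2 of 46 with 2.92% called. All 3 were kept with a mean count of at least 50 (4.08% of all tested genes called) and with a log2 fold change of at least 0.3 in size (3.55%). With Bonferroni adjustment of the authors' DESeq2 p over all genes tested FMRFa alone of the peptide genes passed (adjusted p 0.0025), while Ilp5 (0.38) and NPF (1) did not, and 1.58% of all tested genes passed. Read against a t distribution with 5 degrees of freedom in place of the normal one, none of the 3 passed, and 5 of the 501 calls over all genes were left (0.0464% of all tested genes), as the closing section sets out.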

How the data were processed

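RNA of 7 libraries (4 ISWI RNAi, 3 control, each 40 brains, single reads of 100 bases, strand-specific kit) was sequenced, per the labels' protocols. Alignment used STAR 2.5.0b and build BDGP6, and comparison used DESeq2, per the submitters' processing notes; the counting step and its strand setting are not given in the sources used here. The authors deposited, per the file headers, a base mean (a signal, counts divided by size factors and averaged over libraries), a log2 fold change, a p-value, an adjusted p and a gene length, whose value is the summed exon length for 2319 of 2366 genes. The largest p in the table is just under 0.1. The adjusted p imply Benjamini-Hochberg adjustment over 10775 tests. The lowest counts, 54 genes whose base mean does not exceed 2.43, carry an adjusted p of 1 and are taken as untested.

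Standard errors were worked out from fold change and p as from a Wald test, with 95% normal intervals. Group means follow from base mean, fold change and 4 and 3 libraries, at equal weight. On simulated data the number of tests, the standard errors and the calls were recovered. There p was made with the same normal formula, so the Wald assumption was not tested. The intervals and group means were not part of that check. Python 3.11.15, pandas 2.3.3, SciPy 1.17.1 and Matplotlib 3.10.9 were used. No count model was fitted, since no values per library were used, and p-values cover only the spread between these libraries. Called means an adjusted p under 0.05, listed means having a row. Every listed member was named, and of the other lists every call and up to 4 further genes of smallest p. Dh44-R1, outside that rule, was named beside its ligand after its values were seen. The members and lists were chosen with earlier results of these data known. Symbols matched exactly, and matching by identifier or without case found the same 13 members. Overlaps and neighbours come from the Ensembl annotation of BDGP6 and were looked up after the values were seen. All 13 members have the same start and end there, Nplp2 under another identifier. Alternatives were stricter and looser thresholds, a minimum mean count, a minimum fold change and the t distribution. No sequences were used.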

Additional observations from a re-analysis of the deposited data

How the results depend on the processing

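The 3 peptide calls became 4 at an adjusted p under 0.1 (687 over all genes) and 2 at 0.01 (315), and stayed 3 with a mean count of at least 50 (440) or a log2 fold change of at least 0.3 in size (382). Bonferroni adjustment over all genes tested left 1 (FMRFa), and 170 of 501 over all genes. It also left 1 specification gene (crc), 0 insulin pathway genes and 0 further peptide genes. At an adjusted p under 0.01 those last 2 lists had 0 calls each. With the minimum fold change the specification list had 1 (crc) and the insulin pathway list 0. A t distribution with 5 degrees of freedom on the implied standard errors, chosen after seeing the data, left 0 calls in each of the 7 lists and 5 over all genes. It gave FMRFa, Ilp5 and NPF adjusted p of 0.347, 0.461 and 0.576. It makes no use of the spread that DESeq2 shares between genes. The 95% interval excluded 0 for 8 of 13 listed members, and for 5 with that t distribution, which the intervals of AstCC, Ilp2 and Crz no longer did. No alternative turned a direction, since none refits the data. Leaving out a replicate was not run, and no paired analysis was possible because the columns used carry no values per library. Among listed genes of like mean count, the smallest log2 fold change called was 0.20 for FMRFa, 0.18 for Ilp5 and 0.25 for NPF. The smallest listed was 0.11, 0.09 and 0.13 in the same order. Such sizes follow from the p limit of 0.1 and the adjusted p threshold, so they lend the 3 calls no support.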
